A study of Homo sapiens with 12 samples.

Results

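The average effect of ATF6 inhibition was estimated from all 12 RNA-seq libraries of the series, in 1 model with a term for each of 4 groups. It is the mean of 2 contrasts on the log2 scale, siATF6 minus siCtrl (the siRNA arm) and Ceapin minus DMSO (the compound arm), so that a difference in level between the arms cancels. The arms share no library. Genes called in the same direction by both single contrasts form the shared response, which held 258 of the 17823 genes tested, 114 of them higher and 144 lower.

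The libraries come from DU145, a human cell line established from prostate cancer and insensitive to androgen, with 3 libraries in each group. The siATF6 cells were transfected with an siRNA specific for ATF6, the siCtrl cells with Allstar control siRNA, and both were then cultured for 24 h. The Ceapin cells received 10 µM Ceapin-A7 and the DMSO cells its solvent, for 12 h. Every group also received thapsigargin (Tg), a blocker of the calcium pump of the endoplasmic reticulum (ER), at 30 nM for 3 h before harvest. All values are thus from stressed cells, and no unstressed cells were analysed here. The model rests on 1 cell line, 1 ATF6 siRNA reagent and 1 dose of 1 compound. The arms differ in the means of inhibition, the duration and the handling of the cells, and these cannot be told apart. The labels do not say whether the 3 libraries of a group came from separate cultures, so p-values measure the spread between these libraries, which may be technical.

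ATF6 is a transcription factor made as a membrane protein of the ER. When unfolded protein accumulates it travels to the Golgi, where it is cut, and the freed part enters the nucleus and turns on genes of ER chaperones and of the machinery that clears misfolded ER proteins. It is 1 of the branches of the unfolded protein response, beside IRE1, which splices the mRNA of the transcription factor XBP1, and PERK, which acts through the transcription factors ATF4 and CHOP. Ceapin-A7 keeps the uncut ATF6 protein in the ER. The siRNA acts on the mRNA and the compound on the protein, and the comparison asks which genes move the same way under both.

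Library totals ran from 17760878 to 19202632 counts. The first principal component held 62.4% of the variance and parted the arms, the second held 8.0% and parted siATF6 from siCtrl, and the third held 4.02% and parted Ceapin from DMSO. All 8 epithelial markers were measured; their summed level was 972 to 1000 CPM (TMM-scaled counts relative to library size) in siATF6 and 1090 to 1140 CPM in siCtrl, and 2410 to 2510 CPM in Ceapin and 2460 to 2540 CPM in DMSO. Of these 8 markers 6 fell on the average contrast, on which 11.8% of all genes tested fell. The part of the markers in the results below was not tested. Summed leukocyte markers reached at most 2.14 CPM, endothelial markers 4.12 CPM and fibroblast markers 8.01 CPM in any library. PTPRC, CD3E, MS4A1, CD68, LYZ, DCN, LUM, KLK2, FOLH1, CHGA and CHGB were not analysed here.

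ATF6 mRNA separated the arms. It stood at 26.6, 25.6 and 25.1 CPM in siATF6 and at 123, 126 and 125 CPM in siCtrl. In the compound arm it was at 73.2, 70.9 and 74.7 CPM in Ceapin and 69.3, 73.3 and 71.5 CPM in DMSO. The siATF6 libraries lay far below every siCtrl library, whereas Ceapin and DMSO overlapped. The log2 fold change was −2.27 in the siRNA arm and 0.03 in the compound arm, where it did not pass the test (edgeR quasi-likelihood test with Benjamini-Hochberg adjustment, adjusted p = 0.748). The average of −1.12 for ATF6 (adjusted p = 2.79e-25) is therefore a value that neither arm showed. One label field names an ATF6 siRNA for the Ceapin libraries and a control siRNA for the DMSO libraries, against titles and treatment text. ATF6 mRNA in Ceapin was not below that in DMSO, and the groups were taken from the titles.

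On the average contrast 2094 genes rose (11.7% of those tested) and 2106 fell (11.8%), by edgeR's quasi-likelihood test at a Benjamini-Hochberg adjusted p under 0.05. The siRNA arm alone gave 2869 rises (16.1%) and 2720 falls (15.3%), the compound arm 394 rises (2.21%) and 429 falls (2.41%), together 4.62%. The average effects were small, with a median of 1.10-fold for the rises and 1.12-fold for the falls, and 29 rises and 89 falls reached 1.5-fold. At 1.2-fold or more 228 rises and 540 falls were called, and an additive model, in which the difference between the arms enters the residual spread, called 691 and 937. In bulk RNA, fewer transcribing cells and less RNA per cell cannot be told apart.

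Most of the calls on the average came from the siRNA arm. Of the 4200 genes called, 3303 (78.6%) were called in the siRNA arm and not in the compound arm, with a median absolute log2 fold change of 0.268 in the siRNA arm and 0.044 in the compound arm. For 2227 of these 3303 the difference between the arms was itself past the threshold. Another 214 (5.1%) were called in the compound arm alone, 353 (8.4%) in neither arm, and 72 (1.71%) in both arms with opposite signs. The 258 shared genes made up 6.14%. A call on the average thus says that the mean of both effects differed from 0, and for most genes it does not describe both arms.

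**Figure D1:**
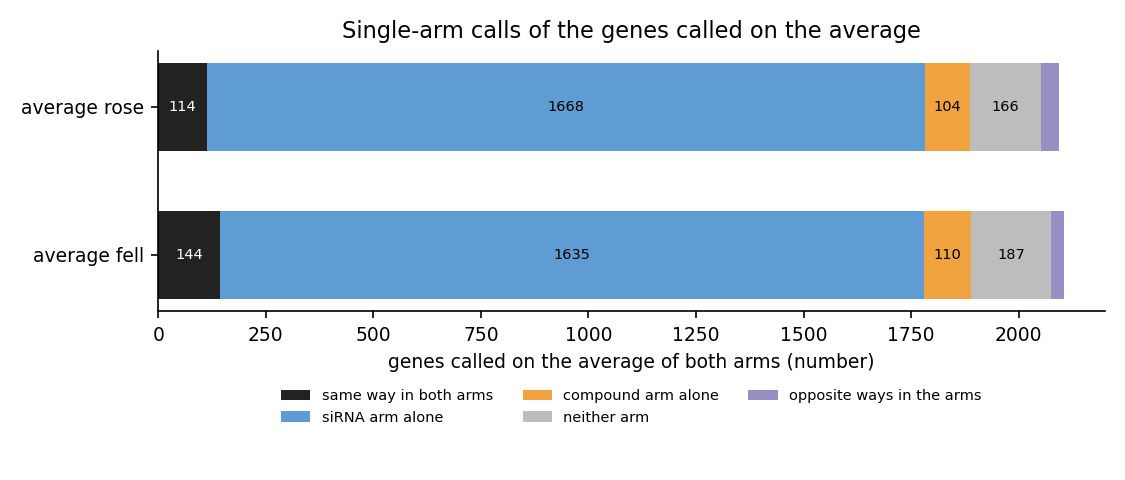
Genes called on the average contrast by their calls in the single arms, with the number of genes on the x axis and 1 bar per direction; segments show genes called the same way in both arms, in the siRNA arm alone, in the compound arm alone, in neither arm, and opposite ways. The siRNA arm alone accounts for 1668 of 2094 rises and 1635 of 2106 falls; the unlabelled segments of opposite genes hold 42 rises and 30 falls.

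The shared response held 114 rises, 0.64% of the genes tested, and 144 falls, 0.808%. The rises were 3.97% of the siRNA arm's rises and 28.9% of the compound arm's rises, and the falls were 5.29% and 33.6% of the falls of the same arms. Genes called with opposite signs were nearly as many: 115 rose after the siRNA and fell after Ceapin-A7 (0.645%), which is 4.01% and 26.8% of those lists, and 115 fell after the siRNA and rose after Ceapin-A7 (0.645%), 4.23% and 29.2%; together the opposite genes were 1.29% of those tested. Across all 17823 genes the log2 fold changes of the arms had a Pearson correlation of −0.00777 and a Spearman correlation of −0.00197, and 49.9% had the same sign. These describe genes measured in the same libraries, not independent samples. Requiring at least 1.2-fold in both arms left 10 shared rises and 17 shared falls, beside 6 and 26 genes with opposite signs, so the shared response was not the larger class at that size. Without Ceapin replicate 3 the shared falls were 90 and the first opposite class 75, and without Ceapin replicate 2 that class was 76.

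**Figure D2:**
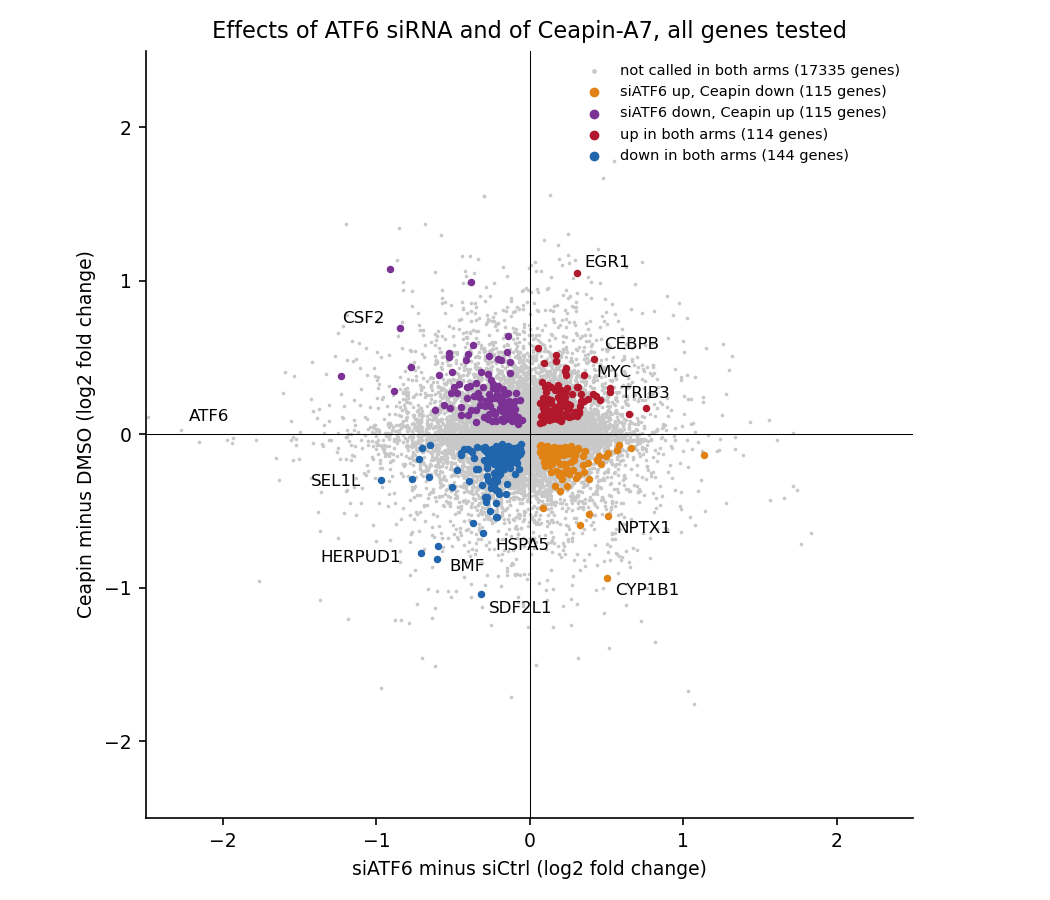
Log2 fold change of siATF6 minus siCtrl (x axis) against Ceapin minus DMSO (y axis), 1 point per gene tested, with genes called in both arms coloured by direction. The 114 shared rises and 144 shared falls lie in the upper right and lower left, the 115 and 115 genes of opposite sign in the other quadrants, and 3 genes lie outside the axes, which end at 2.5.

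Shared genes were well expressed and moved little. Their median level was 108 CPM for the rises and 126 CPM for the falls, against 13.3 CPM for all genes tested. The rises had a median of 1.14-fold in each arm, and the falls 1.15-fold in the siRNA arm and 1.12-fold in the compound arm. Genes of opposite sign were alike in this. The 115 that rose after the siRNA and fell after Ceapin-A7 had medians of 140 CPM, 1.13-fold and 1.1-fold. For the 115 that did the reverse the medians were 89.4 CPM, 1.17-fold and 1.16-fold. Level and effect size were thus not particular to shared genes. In 112 of the 114 rises and 139 of the 144 falls the treated libraries lay wholly to one side of the controls in both arms. Over all genes tested this held for 2.49% upward and 3.15% downward, and for shared genes it follows closely from the calls. The smaller of the 2 effects decided membership. EMB and YPEL5 were just inside with edgeR adjusted p of 0.0486 and 0.0488 in the weaker arm, and ZZZ3 and ZNF202 just outside with 0.05 and 0.0501. When each library was left out in turn, 58 rises and 61 falls stayed in the shared class all 12 times.

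ER chaperones had the largest share of shared falls among the 25 lists. Of 15 chaperones and co-chaperones tested, 10 fell in both arms, 11 fell and 0 rose on the average, and 1, CALR, moved in opposite directions. The shares of all genes tested were 0.808% shared falls, 11.8% falls and 11.7% rises on the average, and 1.29% of opposite sign. The median average log2 fold change of the chaperones was −0.291, against 0.003 for all genes tested. By single arm the medians were −0.244 after the siRNA and −0.3 after Ceapin-A7. The 10 shared members were HSPA5, HSP90B1, HYOU1, DNAJB11, DNAJC3, DNAJB9, SDF2L1, MANF, CRELD2 and CANX. At 1.2-fold or more in both arms 4 of the 15 remained called. The lists used here were chosen with results of these data known, so their direction is a description.

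HSPA5 encodes BiP, the main Hsp70 chaperone of the ER lumen (GRCh38 chr9:125234853-125241330, - strand). It stood at 1131, 1121 and 1115 CPM in siATF6 and 1397, 1363 and 1397 CPM in siCtrl. Ceapin libraries had 940.5, 932 and 944 CPM and DMSO libraries 1473, 1460 and 1464 CPM. No treated library reached the lowest control of its arm, and the controls of both arms were at similar levels. HSPA5 fell by 1.39-fold on the average (log2 fold change −0.47, SE 0.0130, edgeR adjusted p = 1.07e-23). Its effect was −0.30 after the siRNA and −0.64 after Ceapin-A7, a difference of 0.34 (95% interval 0.29 to 0.39, edgeR adjusted p = 3.6e-12). HSP90B1, the ER form of Hsp90, had an average log2 fold change of −0.34, with 785 ± 10.7 CPM in siATF6 and 953 ± 24.2 in siCtrl, and 698 ± 8.92 in Ceapin and 925 ± 22.9 in DMSO (mean ± SD, n = 3).

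SDF2L1, a small partner of ER chaperone complexes (GRCh38 chr22:21642261-21644298, + strand), was the least abundant of the 10. Its levels were 5.60, 6.38 and 5.46 CPM in siATF6 and 7.02, 8.20 and 6.52 CPM in siCtrl. They were 5.66, 6.82 and 6.25 CPM in Ceapin and 12.6, 12.7 and 13.2 CPM in DMSO. The groups did not overlap in either arm, though in the siRNA arm the gap was narrow. The effect was −0.32 after the siRNA (edgeR adjusted p = 0.0231) and −1.04 after Ceapin-A7, with an average of −0.68 (SE 0.0739). The call in the siRNA arm was lost without siATF6 replicate 1 (edgeR adjusted p = 0.0818), siATF6 replicate 3 (0.0946) or siCtrl replicate 2 (0.189), and with DESeq2 (0.0745).

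CRELD2, a secreted ER folding factor, stood at 16.9, 16.0 and 14.8 CPM in siATF6 and 19.6, 21.1 and 20.8 CPM in siCtrl. The compound arm gave 22.6, 19.7 and 22.2 CPM in Ceapin and 29.2, 33.8 and 33.2 CPM in DMSO. Treated and control libraries were apart in both arms, and the average log2 fold change was −0.47 (SE 0.0481, edgeR adjusted p = 2.09e-09). The Hsp40 co-chaperones DNAJB11, DNAJC3 and DNAJB9 fell with average log2 fold changes of −0.38, −0.29 and −0.35. MANF, a secreted factor held in the ER, fell with −0.38. DNAJB9 fell more after the siRNA (−0.48 against −0.23 after Ceapin-A7), and DNAJB11 more after the compound (−0.22 against −0.54). HYOU1, a large Hsp70-like chaperone, fell with −0.27, and CANX, the membrane lectin calnexin, with −0.08, a shared call lost without siCtrl replicate 3 (edgeR adjusted p = 0.0859 in the siRNA arm). CALR, the soluble lectin calreticulin, rose after the siRNA (0.14) and fell after Ceapin-A7 (−0.19), so its average of −0.02 did not pass.

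Promoter sequence was read for the 117 of the 144 shared falls, the 89 of the 114 shared rises and the 11934 of all genes tested that have a promoter window in the RefSeq table (GRCh38.p14; 250 bases before to 50 after the start site). The ER stress response element (ERSE, CCAAT and CCACG with 9 bases of any kind between them) and ERSE-II (ATTGG and CCACG with 1 base between them), which ATF6 is known to bind together with NF-Y, were searched on both strands. An ERSE stood in 4 of 117 shared falls (3.42%) and 14 of 11934 promoters (0.117%), and an ERSE-II in 3 (2.56%) and 11 (0.0922%). Of the shared rises 0 of 89 held either. TGACGTGG, the unfolded protein response element (UPRE), stood in 2 shared falls (1.71%), in 1 shared rise (1.12%) and in 111 of all promoters (0.93%). The 7 windows with an ERSE or ERSE-II are printed because they hold the elements that ATF6 is known to bind; capitals mark the motif on either strand, so an element on the other strand begins with CGTGG.
HSPA5, chr9:125241381-125241419, - strand, ERSE: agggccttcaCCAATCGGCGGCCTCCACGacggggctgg
CRELD2, chr22:49918544-49918582, + strand, ERSE on the other strand: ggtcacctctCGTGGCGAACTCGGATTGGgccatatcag
CANX, chr5:179698768-179698806, + strand, ERSE: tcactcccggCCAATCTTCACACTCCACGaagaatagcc
HSP90B1, chr12:103930206-103930349, + strand, 1 ERSE on each strand: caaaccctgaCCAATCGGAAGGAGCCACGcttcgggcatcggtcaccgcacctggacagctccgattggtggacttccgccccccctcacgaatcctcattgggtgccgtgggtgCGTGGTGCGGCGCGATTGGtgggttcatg
HERPUD1, chr16:56932015-56932045, + strand, ERSE-II: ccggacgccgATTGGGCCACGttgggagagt
SDF2L1, chr22:21642104-21642134, + strand, ERSE-II on the other strand: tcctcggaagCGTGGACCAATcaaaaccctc
HYOU1, chr11:119057264-119057403, - strand, 2 ERSE-II on the other strand, the first overlapping a UPRE: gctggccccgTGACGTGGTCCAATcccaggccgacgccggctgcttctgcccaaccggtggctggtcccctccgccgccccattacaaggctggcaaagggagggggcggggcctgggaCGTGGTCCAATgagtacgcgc
A match describes the letters of a window and is neither a binding site shown here nor a cause. Of the 11934 genes tested that have a promoter window, 25 held an ERSE or ERSE-II, a count made after the values were seen. Of these 25, 11 fell, 3 rose and 11 did not pass on the average, while 7 fell and 0 rose in both arms. Over all genes tested 11.8% fell and 11.7% rose on the average, and 0.808% fell and 0.64% rose in both arms. The compound arm called 8 falls and 0 rises among the 25, beside 2.41% and 2.21% of all genes tested. The siRNA arm called 10 falls and 4 rises among the 25, beside 15.3% and 16.1%. XBP1, whose mRNA IRE1 splices, holds an ERSE and passed in neither arm, with an average of 0.01, and CALR, the gene of opposite signs, also holds one.

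**Figure D3:**
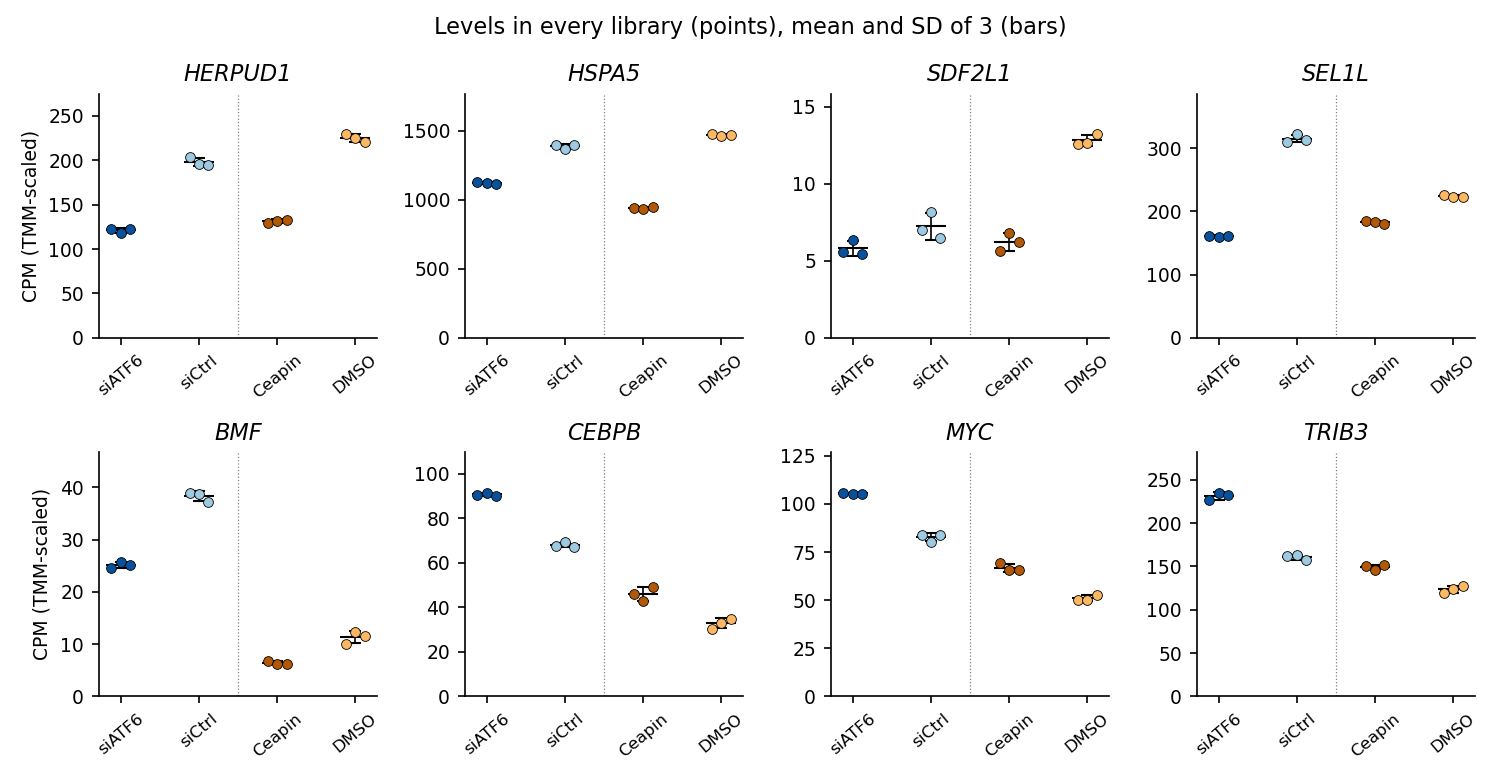
TMM-scaled CPM (y axis, from 0) of 8 shared genes in each library, with siATF6, siCtrl, Ceapin and DMSO along the x axis; points are libraries and bars the mean and SD of 3. HERPUD1, HSPA5, SDF2L1, SEL1L and BMF are lower, and CEBPB, MYC and TRIB3 higher, in the treated libraries than in every control of the same arm.

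Among genes of ER-associated degradation, which draws misfolded proteins out of the ER for the proteasome, 13 of 22 fell and 2 rose on the average, with a median of −0.143. HERPUD1, SEL1L and SELENOK fell in both arms and 0 members rose in both. Of all genes tested 11.8% fell and 11.7% rose on the average, and 0.808% fell and 0.64% rose in both arms. HERPUD1, a membrane scaffold of the degradation complex (GRCh38 chr16:56932048-56944863, + strand), had the largest shared effect by its weaker arm. It stood at 122, 118 and 123 CPM in siATF6 and 203, 196 and 195 CPM in siCtrl. In the compound arm it was at 129, 132 and 133 CPM in Ceapin and 229, 225 and 220.5 CPM in DMSO. Treated and control libraries were widely apart in both arms. HERPUD1 fell by 1.68-fold on the average (log2 fold change −0.74, SE 0.0190, edgeR adjusted p = 2.09e-24). Singly the arms gave −0.71 and −0.78, and the difference between them did not pass (0.06, 95% interval −0.01 to 0.14).

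SEL1L, the adaptor that brings substrates to the ubiquitin ligase SYVN1 (GRCh38 chr14:81471549-81533861, - strand), stood at 162, 159 and 162 CPM in siATF6 and 310.2, 322 and 313 CPM in siCtrl. Ceapin libraries had 184, 183 and 180.3 CPM and DMSO libraries 226, 223 and 223 CPM. Both arms were free of overlap, and the gap was much wider in the siRNA arm. The effects were −0.97 and −0.30, a difference of −0.67 (95% interval −0.74 to −0.60, edgeR adjusted p = 9.73e-17), with an average of −0.63. SELENOK, a selenoprotein of the ER membrane, had an average of −0.28, from −0.26 and −0.31. Of the other members 9 were called in the siRNA arm alone, such as DERL1 (−0.73, and −0.01 after Ceapin-A7) and FAF2 (−1.01 and −0.01), and SYVN1, DERL2 and VCP in the compound arm alone.

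The disulfide and prolyl folding enzymes went different ways. Of 17 tested, 8 fell and 5 rose on the average (median −0.063), 3 fell in both arms and 2, P4HB and ERO1A, rose after the siRNA and fell after Ceapin-A7. All genes tested gave 11.8% falls and 11.7% rises on the average, 0.808% shared falls and 0.645% of that opposite pattern. The shared falls of the list were disulfide isomerases. PDIA4 averaged 232 ± 9.38 CPM in siATF6 and 266 ± 3.77 in siCtrl, and 269.6 ± 7.88 in Ceapin and 322 ± 8.59 in DMSO (SD, n = 3), an average log2 fold change of −0.23 (edgeR adjusted p = 4.93e-11). PDIA6 fell with −0.19 and PDIA3 with −0.12; PDIA3 has a processed copy elsewhere in the genome, to which the authors' quantification could have split reads. Of the rises on the average PRDX4, a peroxiredoxin of the ER, came from the siRNA arm (1.09, and −0.05 after Ceapin-A7).

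Other lists of the secretory pathway held 0 to 2 shared falls each, against a share of 0.808% of all genes tested. With lists of this size a count of 0 is near that share. For counts on the average, the shares of all genes tested were 11.7% rises and 11.8% falls. Of 26 genes of ER entry (translocon, signal peptidase and oligosaccharyltransferase) 0 were shared (1 without siCtrl replicate 1, Ceapin replicate 2 or DMSO replicate 3, and 2 by DESeq2), and 2 rose and 6 fell on the average. SPCS3, a signal peptidase subunit, averaged 45.0 ± 1.31 CPM in siATF6 and 89.9 ± 2.94 in siCtrl, and 83.4 ± 2.73 in Ceapin and 87.0 ± 1.81 in DMSO (SD, n = 3), and was called in the siRNA arm alone. Of 9 genes of the glycoprotein folding cycle 0 were shared. Of 25 genes of ER to Golgi traffic 3 rose and 3 fell on the average, and 2 fell in both arms, a count of 1 without Ceapin replicate 1 or 2 and of 0 without Ceapin replicate 3 or DMSO replicate 1 or 2. Among 15 outputs of IRE1 and XBP1, DNAJB9 and PDIA6 fell in both arms, and ERN1, the gene of IRE1, and HSPA13 fell after the siRNA and rose after Ceapin-A7. ATP2A2, the ER calcium pump that thapsigargin blocks, fell in both arms (−0.17 and −0.19); it was looked up after its values were seen.

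The PERK, ATF4 and CHOP targets had the largest share of shared rises among the 25 lists. Of 17 tested, 6 rose and 1 fell in both arms, 5 moved in opposite directions, and 10 rose and 3 fell on the average (median 0.103). For all genes tested the shares were 0.64% and 0.808% in both arms, 1.29% in opposite directions, and 11.7% and 11.8% on the average. Of the 17, the siRNA arm called 8 rises and 5 falls (median 0.06) and the compound arm 11 rises and 3 falls (median 0.237). The shared rises were ATF4, TRIB3, SESN2, DDIT4, PPP1R15A and CEBPB, and the shared fall was DDIT3, which encodes CHOP. At 1.2-fold or more in both arms 2 of the rises remained called. The opposite members were CHAC1, CEBPG and TNFRSF10B, which fell after the siRNA and rose after Ceapin-A7, and ERO1A and VEGFA, which did the reverse. ATF4 itself averaged 513 ± 7.43 CPM in siATF6 and 458 ± 8.19 in siCtrl, and 476 ± 2.11 in Ceapin and 436 ± 3.65 in DMSO (SD, n = 3), an average log2 fold change of 0.14 (edgeR adjusted p = 2.48e-09).

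CEBPB, a bZIP transcription factor and partner of CHOP (GRCh38 chr20:50190734-50192689, + strand), had the largest shared rise by its weaker arm. It stood at 90.7, 91.6 and 90.2 CPM in siATF6 and 67.5, 69.3 and 67.3 CPM in siCtrl. The compound arm gave 46.2, 43.0 and 49.3 CPM in Ceapin and 30.4, 33.2 and 35.0 CPM in DMSO. The treated libraries were higher in both arms without overlap, from different control levels. The average was 0.45 (SE 0.0317, edgeR adjusted p = 4.47e-13), and the difference between the arms, −0.07, did not pass (95% interval −0.20 to 0.06). CEBPD, of the same family, rose with an average of 0.41.

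TRIB3, a pseudokinase induced by ATF4 and CHOP, stood at 226, 235 and 232 CPM in siATF6 and 162, 163 and 158 CPM in siCtrl. In the compound arm it was at 150.2, 146 and 152 CPM in Ceapin and 119, 124 and 127 CPM in DMSO. The rise was larger after the siRNA (0.52) than after Ceapin-A7 (0.27; difference 0.25, edgeR adjusted p = 6.79e-06). SESN2, a stress-induced inhibitor of mTORC1 signalling, rose more after the compound (0.24 against 0.44, adjusted p of the difference by edgeR = 0.00232). PPP1R15A, the regulatory subunit that reverses the phosphorylation of eIF2α, rose with an average of 0.25 and DDIT4, another inhibitor of mTORC1, with 0.32.

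DDIT3 went against the other shared members of its list. It stood at 61.9, 58.4 and 65.1 CPM in siATF6 and 76.5, 71.2 and 73.8 CPM in siCtrl. Ceapin libraries had 45.0, 50.3 and 46.8 CPM and DMSO libraries 58.0, 59.9 and 63.5 CPM. Treated libraries lay below the controls in both arms, and the average was −0.30 (SE 0.0317, edgeR adjusted p = 3.83e-09). Its 3′ end overlaps that of MARS1 on the opposite strand, and the sources used here do not give whether reads were assigned by strand; MARS1 changed in the other direction.

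Genes of amino acid supply, many of which ATF4 is known to induce, rose on the average in 11 of 18 cases and fell in 1 (median 0.049). Beside them, 11.7% of all genes tested rose and 11.8% fell on the average, and 0.64% rose in both arms. Of the 18, the siRNA arm called 5 rises and 4 falls (median 0.01) and the compound arm 11 rises and 0 falls (median 0.152). The shared rises were ASNS, the asparagine synthetase, PHGDH, the first enzyme of serine synthesis, and the transporters SLC1A5 and SLC3A2. No member fell in both arms, and SLC7A11, SLC1A4 and SLC38A2 fell after the siRNA and rose after Ceapin-A7. ASNS stood at 431, 424 and 417 CPM in siATF6 and 372, 350.3 and 366 CPM in siCtrl. The compound arm gave 194, 195 and 198 CPM in Ceapin and 170.1, 170.1 and 176 CPM in DMSO. The groups were apart in both arms, by less than the gap between the arms' controls, and the average was 0.20 (edgeR adjusted p = 7.75e-11). SLC1A5, a glutamine transporter, rose with 0.23, and SLC3A2, the heavy chain of several amino acid exchangers, with 0.21; SLC3A2 rose by 0.08 after the siRNA and 0.34 after Ceapin-A7. PHGDH rose with 0.17, but its call in the compound arm was lost without Ceapin replicate 1 (edgeR adjusted p = 0.11) or 2 (0.0779), or DMSO replicate 1 (0.0601) or 2 (0.143).

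Of 18 cytosolic aminoacyl-tRNA synthetases, which charge tRNAs with amino acids, 10 rose and 4 fell on the average (median 0.081), and SARS1, TARS1 and MARS1 rose in both arms (5 genes without DMSO replicate 3). The shares of all genes tested were 11.7% and 11.8% on the average and 0.64% rises in both arms. SARS1 averaged 219.9 ± 2.52 CPM in siATF6 and 179 ± 2.43 in siCtrl, and 155 ± 3.47 in Ceapin and 140.4 ± 2.36 in DMSO (SD, n = 3). Its average log2 fold change was 0.22, that of TARS1 0.15 and that of MARS1 0.11. IARS1 fell after the siRNA and rose after Ceapin-A7, and 9 members were called in the siRNA arm alone, among them YARS1 at −1.04.

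The C/EBP-ATF response element (CARE), written here as TGATGNAA and added after the values were seen, stood in 6 of 89 promoters of shared rises (6.74%), 3 of 117 of shared falls (2.56%) and 213 of 11934 in all (1.78%). The 6 were ASNS, TARS1, MARS1, SLC3A2, BCAT1, an enzyme of branched-chain amino acid breakdown, and NRIP1, a nuclear receptor corepressor. The compound call of BCAT1 was lost without Ceapin replicate 1 (edgeR adjusted p = 0.0516) or DMSO replicate 3 (0.076). The 4 that stand in the lists above are printed to show the element's place near the start site, with the motif in capitals.
ASNS, chr7:97872459-97872486, - strand: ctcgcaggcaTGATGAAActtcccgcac
TARS1, chr5:33440957-33440984, + strand, on the other strand: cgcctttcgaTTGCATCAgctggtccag
MARS1, chr12:57488054-57488081, + strand, on the other strand: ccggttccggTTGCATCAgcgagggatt
SLC3A2, chr11:62881726-62881748, + strand, on the other strand: gcaggactccTTACATCAgctcc
The element began 68 bases before the start site in ASNS.

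Immediate-early genes, which respond within minutes to growth factors and stress, rose in both arms in 5 of 20 cases and fell in both in 2; on the average 8 rose and 6 fell (median 0.087). Beside these counts, 0.64% of all genes tested rose and 0.808% fell in both arms, and 11.7% rose and 11.8% fell on the average. The shared rises of the list were EGR1, MYC, FOSL1, JUN and KLF6 and its shared falls FOS and JUND, all of them genes of transcription factors. MYC stood at 106, 105 and 105 CPM in siATF6 and 84.0, 80.1 and 83.9 CPM in siCtrl. In the compound arm it was at 69.3, 65.6 and 65.7 CPM in Ceapin and 50.3, 50.2 and 52.9 CPM in DMSO. No libraries overlapped, and the effects were close, 0.35 and 0.39 (difference −0.04, 95% interval −0.14 to 0.07); the average was 0.37 (SE 0.0247, edgeR adjusted p = 1.41e-13).

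EGR1 stood at 17.9, 23.0 and 19.6 CPM in siATF6 and 16.6, 15.1 and 17.4 CPM in siCtrl. Ceapin libraries had 11.5, 10.9 and 13.1 CPM and DMSO libraries 5.80, 5.71 and 5.54 CPM. In the siRNA arm the lowest treated library was only just above the highest control, while in the compound arm the groups were far apart. The effects were 0.30 and 1.05 (difference −0.75, edgeR adjusted p = 8.07e-05), and the call in the siRNA arm was lost without siATF6 replicate 2 (edgeR adjusted p = 0.0819). FOSL1 and JUN rose with averages of 0.21 and 0.19. FOS averaged 40.7 ± 2.63 CPM in siATF6 and 47.3 ± 2.64 in siCtrl, and 14.8 ± 0.459 in Ceapin and 19.1 ± 1.41 in DMSO (SD, n = 3), a fall with an average of −0.29. JUND fell with −0.22; FOS and JUND lie outside the rule for named genes and are named to complete the count.

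**Figure D4:**
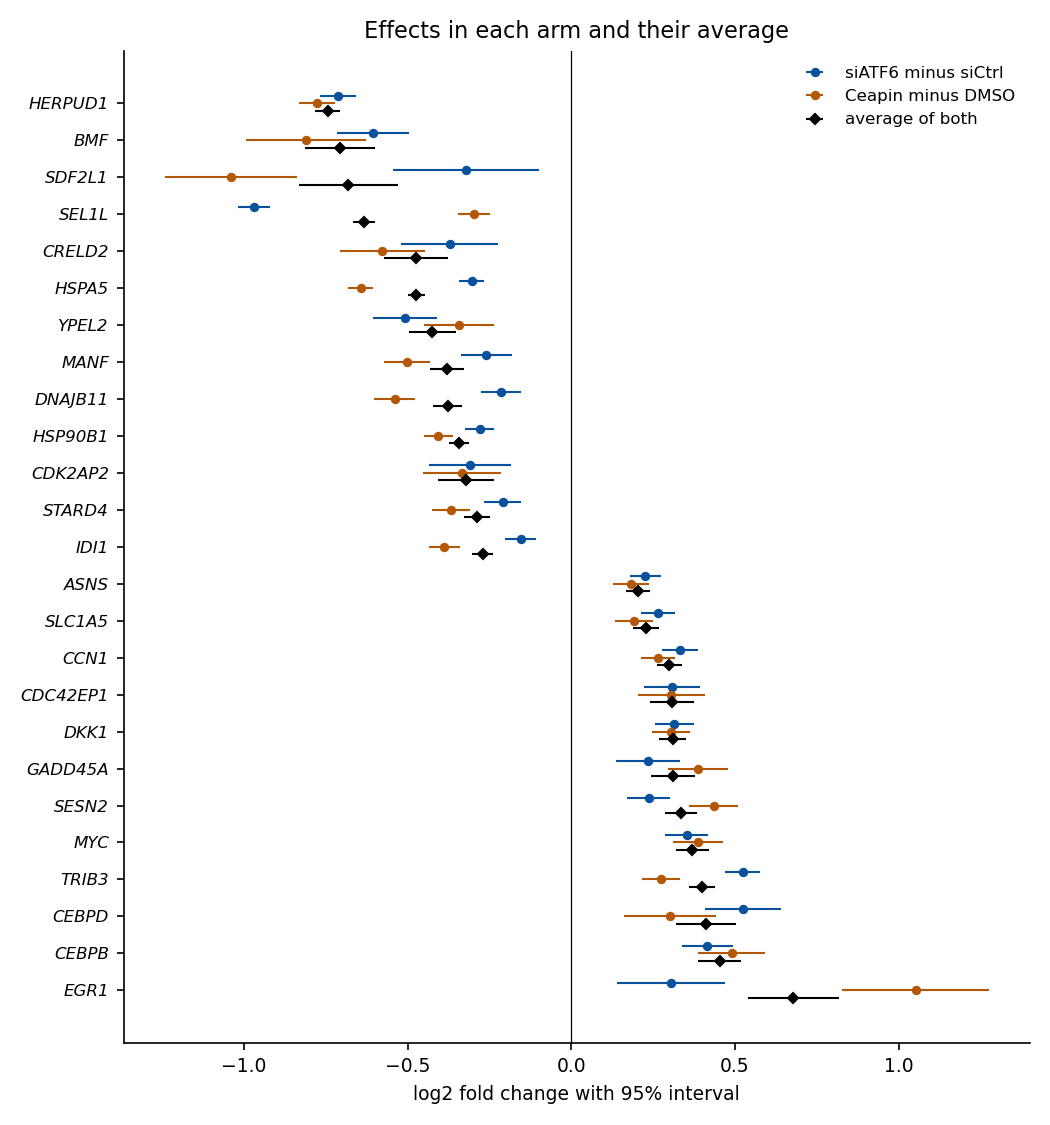
Log2 fold changes with 95% intervals (x axis) of 25 shared genes (rows), for siATF6 minus siCtrl, Ceapin minus DMSO and their average. The intervals of both arms lie on the same side of 0 for every gene shown; for SEL1L and HSPA5 they are apart, and for HERPUD1, DKK1 and MYC they overlap.

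Genes of sterol synthesis and uptake fell on the average in 13 of 25 cases and rose in 1 (median −0.085). IDI1, TM7SF2, MSMO1 and STARD4 were among those that fell in both arms, yet 8 members rose after the siRNA and fell after Ceapin-A7, among them INSIG1 (0.33 and −0.59), which holds the sterol sensor in the ER. Of all genes tested 11.8% fell and 11.7% rose on the average, 0.808% fell in both arms and 0.645% had that opposite pattern. The median of the sterol list was 0.036 in the siRNA arm and −0.158 in the compound arm. The call of TM7SF2 in the compound arm was lost without Ceapin replicate 1 (edgeR adjusted p = 0.102) or 2 (0.166), or DMSO replicate 1 (0.0742) or 2 (0.165). IDI1, which makes dimethylallyl diphosphate for the pathway, stood at 307, 300.2 and 302 CPM in siATF6 and 342, 330.3 and 339 CPM in siCtrl. The compound arm gave 235, 246 and 242 CPM in Ceapin and 317, 310.3 and 318 CPM in DMSO. The groups did not overlap, and the fall was larger after Ceapin-A7 (−0.39) than after the siRNA (−0.15; edgeR adjusted p of the difference = 1.32e-06). STARD4, a carrier of cholesterol between membranes, fell with an average of −0.29.

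Of 15 genes of fatty acid synthesis 7 fell and 1 rose on the average (median −0.053) and 3 fell in both arms. Beside these stand 11.8%, 11.7% and 0.808% of all genes tested. ACLY, which makes cytosolic acetyl-CoA from citrate, averaged 592 ± 5.95 CPM in siATF6 and 637 ± 3.76 in siCtrl, and 632 ± 1.65 in Ceapin and 701 ± 3.48 in DMSO (SD, n = 3), an average log2 fold change of −0.13. ACSS2, which makes acetyl-CoA from acetate, fell with −0.20. FASN, the fatty acid synthase, rose after the siRNA (0.09) and fell after Ceapin-A7 (−0.18).

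**Figure D5:**
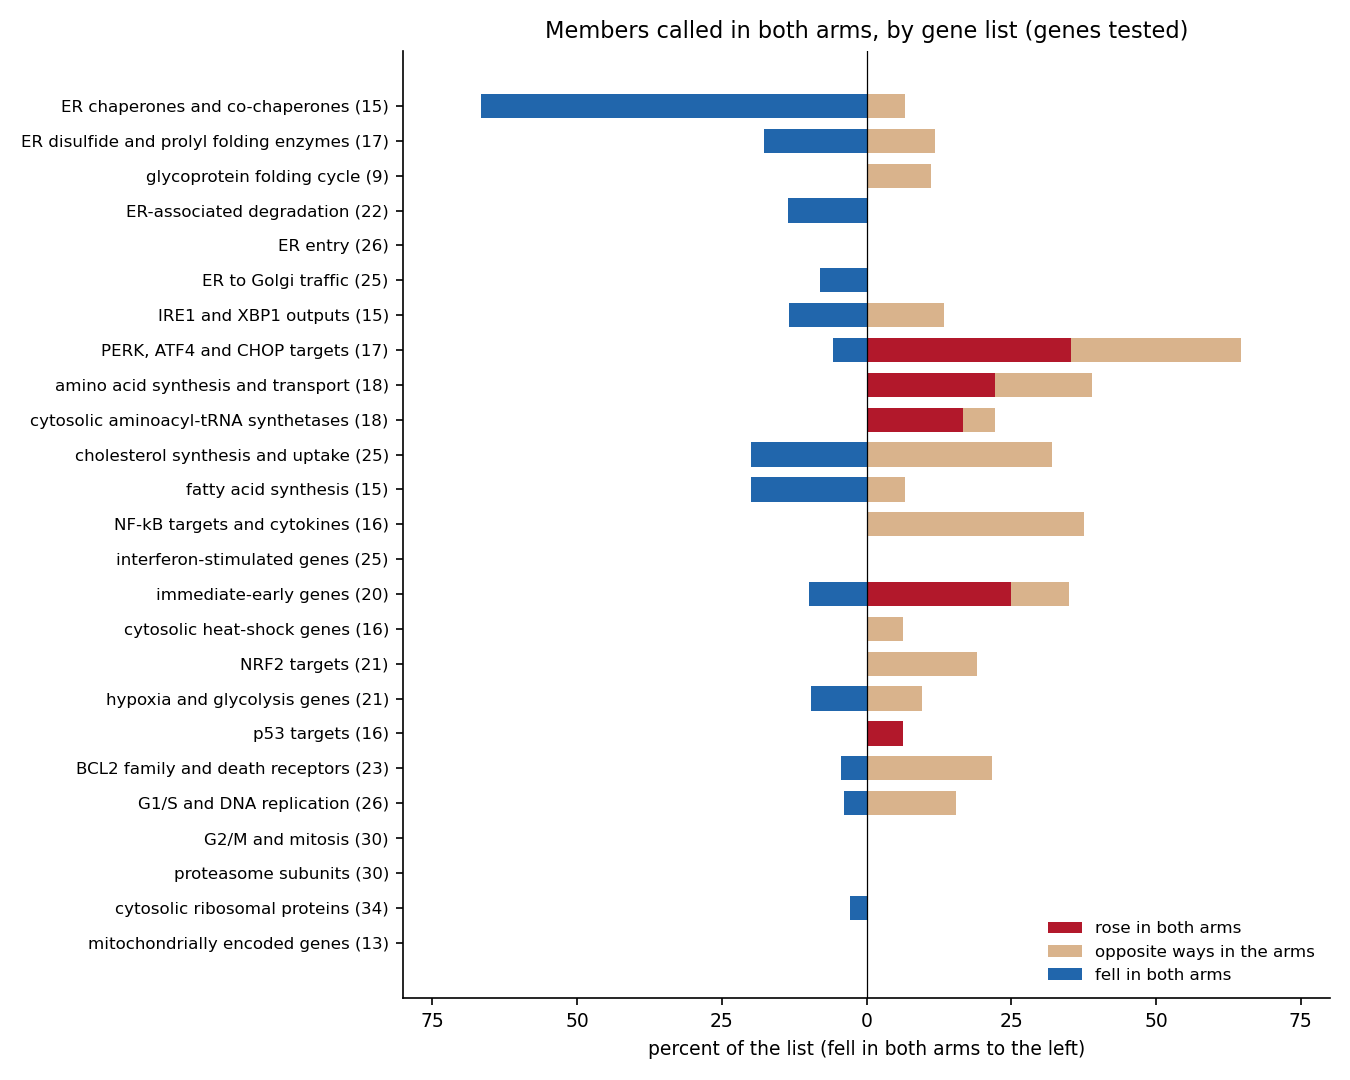
Share of each gene list (x axis, percent of the genes tested, whose number is in brackets) that fell in both arms (left of 0), rose in both arms (right of 0) or moved in opposite directions (stacked on the right), for 25 lists. ER chaperones reach the furthest to the left and PERK, ATF4 and CHOP targets the furthest to the right, and the lists of NF-kB targets, G2/M genes and interferon-stimulated genes hold no shared member.

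BMF was the shared fall with the second largest effect in its weaker arm and the 1 shared member of 23 genes of the BCL2 family and death receptors (a shared rise joined it without siATF6 replicate 1 or 2). It encodes a pro-apoptotic BH3-only protein (GRCh38 chr15:40087890-40108892, - strand). It stood at 24.6, 25.7 and 25.1 CPM in siATF6 and 39.0, 38.8 and 37.1 CPM in siCtrl. In the compound arm it was at 6.86, 6.28 and 6.25 CPM in Ceapin and 10.1, 12.3 and 11.6 CPM in DMSO. Treated and control libraries were apart in both arms, although the compound arm's controls were below the siRNA arm's treated libraries. BMF fell by 1.63-fold on the average (log2 fold change −0.71, SE 0.0524, edgeR adjusted p = 1.65e-12). Of the other members 5 fell after the siRNA and rose after Ceapin-A7, among them MCL1 and BIRC3. Over all genes tested 1.45% were shared and 0.645% had that opposite pattern.

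The remaining genes with the largest shared effects belonged to no list used here. YPEL2 fell with an average of −0.42 (−0.51 and −0.34) and CDK2AP2, a partner of the cyclin-dependent kinase CDK2, with −0.32 (−0.31 and −0.33). DKK1, a secreted inhibitor of Wnt signalling, stood at 139.5, 131 and 136 CPM in siATF6 and 109, 109 and 109.8 CPM in siCtrl, and at 159.9, 162 and 161 CPM in Ceapin and 132, 133 and 126 CPM in DMSO. No library overlapped, and the arms gave nearly equal effects, 0.31 and 0.31 (95% interval of the difference −0.07 to 0.09). CCN1, a matricellular protein, rose with an average of 0.30 and CDC42EP1, an effector of the GTPase CDC42, with 0.31. Chosen after their values were seen, PCK2 and GPT2, mitochondrial enzymes of phosphoenolpyruvate and alanine metabolism, rose with 0.34 and 0.34.

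The growth and metabolic lists held 0 to 2 shared members each, against 1.45% of all genes tested. Counts on the average below stand beside 11.7% rises and 11.8% falls among all genes tested. In the list of G1/S and replication genes the average contrast called 11 rises and 7 falls among 26, and MCM4, a subunit of the replicative helicase, was the 1 shared member, a fall with −0.18. Of 16 p53 targets 2 rose and 6 fell on the average, and GADD45A, a DNA damage response gene, rose in both arms (0.23 and 0.39). Of 21 hypoxia and glycolysis genes 3 rose and 11 fell, and 2 fell in both arms (1 without Ceapin replicate 1 or 2 or DMSO replicate 1 or 3). LDHA, the lactate dehydrogenase gene, did so with an average of −0.12; it has processed copies in the genome that could share its reads. Of 30 G2/M and mitosis genes 13 rose and 2 fell on the average, with 18 rises in the siRNA arm, 0 calls in the compound arm and 0 shared members.

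Inflammatory lists showed how the average can stand for neither arm. Of 16 NF-kB targets and cytokines 7 rose and 3 fell on the average, with a median of 0.058, from −0.084 in the siRNA arm and 0.282 in the compound arm. No member was shared, a count near the 1.45% of all genes tested, and 6 fell after the siRNA and rose after Ceapin-A7, among them the chemokine gene CCL20 (−0.38 and 0.99) and IL6 (−0.15 and 0.54). Of 25 interferon-stimulated genes 9 fell and 0 rose on the average; the siRNA arm called 14 falls and the compound arm 1, HERC5, and 0 were shared. For both lists, 11.7% of all genes tested rose and 11.8% fell on the average. By single arm 15.3% of all genes tested fell after the siRNA and 2.41% after Ceapin-A7, and 0.645% fell after the siRNA and rose after Ceapin-A7. OAS3, a sensor of double-stranded RNA, had an average of −0.60 from −1.19 and −0.02.

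The lists on protein turnover, stress and RNA composition held 0 shared rises, which is near the 0.64% of all genes tested that rose in both arms. Among all genes tested 11.7% rose and 11.8% fell on the average. Proteasome subunits (7 rises and 2 falls of 30 on the average), cytosolic heat-shock genes (2 and 3 of 16) and NRF2 targets (6 and 2 of 21) held 0 shared members. Among ribosomal protein genes of the cytosol the average called 7 rises and 4 falls of 34, and 1 fell in both arms, a call lost without siATF6 replicate 1 or 3, siCtrl replicate 3, or any Ceapin or DMSO replicate. Mitochondrially encoded genes rose on the average in 10 of 13 cases (median 0.102), with 12 rises in the siRNA arm and 0 in the compound arm (shared rises were 1 without siCtrl replicate 1 and 2 without DMSO replicate 1). Their summed level was 63000 to 66600 CPM in siATF6 and 57200 to 61700 CPM in siCtrl, and 87300 to 92200 CPM in Ceapin and 84800 to 91000 CPM in DMSO; its part in the results was not tested.

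Genes that moved in opposite directions show what the average leaves out. CYP1B1, a cytochrome P450 induced by the aryl hydrocarbon receptor, stood at 251, 247 and 249 CPM in siATF6 and 175, 172 and 180.5 CPM in siCtrl. Ceapin libraries had 44.7, 47.8 and 48.5 CPM and DMSO libraries 92.2, 86.2 and 91.1 CPM. It rose by 0.50 after the siRNA and had −0.94 after Ceapin-A7, and the average of −0.22 was still called (edgeR adjusted p = 7.23e-09). NPTX1, a secreted neuronal pentraxin, had 0.51 and −0.53 and an average of −0.01 (edgeR adjusted p = 0.865). CSF2, the gene of the cytokine GM-CSF, had −0.85 and 0.70 at levels of 5.36 CPM in siATF6, 9.64 in siCtrl, 2.71 in Ceapin and 1.67 in DMSO, and IL1RN, which encodes the interleukin 1 receptor antagonist, had −0.91 and 1.08 at under 2 CPM. The CSF2 call in the compound arm was lost without Ceapin replicate 1 (edgeR adjusted p = 0.0717) or 2 (0.052) or DMSO replicate 1 (0.1) or 2 (0.124). That of IL1RN was lost in the siRNA arm without siATF6 replicate 1 (0.0502), 2 (0.107) or 3 (0.0516) or siCtrl replicate 1 (0.0596) or 2 (0.0818), and in the compound arm without DMSO replicate 3 (0.0636).

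Genes called on the average and in neither arm were the reverse case. All 353 had the same sign in both arms, with a median absolute log2 fold change of 0.111 in the siRNA arm and 0.137 in the compound arm. The shared sign follows closely from the selection, because effects of opposite sign cancel in the average. TTC30A, a protein of ciliary transport, had an average of −0.23 (edgeR adjusted p = 0.00309) from −0.21 and −0.25, and TSPAN5, a tetraspanin, −0.10 from −0.08 and −0.12. Among rises THUMPD2 had 0.16 and BCL9L, a coactivator of β-catenin, 0.10. In the siRNA arm the libraries of THUMPD2 and BCL9L overlapped with their controls.

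Sharing a direction did not mean equal size. The difference between the arms was called for 31 of the 114 shared rises and 43 of the 144 shared falls, against 23.4% of all genes tested. Shared genes were more highly expressed (medians of 108 and 126 CPM against 13.3 CPM), and the shares were not compared at equal level. They are therefore not read as a property of shared genes. Where it was called among the falls, the siRNA effect was the larger in 32 and the compound effect in 11; among the rises the counts were 15 and 16. For the other 83 rises and 101 falls the difference did not pass, which does not show that the effects were equal.

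The 7-base sequence GAGTCAT in the longest 3′ untranslated region was taken from earlier results on these data as a feature of genes that fell after the siRNA. It stood in 23 of 139 shared falls with such a region (16.5%) and 3 of 110 shared rises (2.73%), against 8.54% of all genes tested, 20.7% of all falls in the siRNA arm, 10.3% of falls in the compound arm and 24.3% of genes that fell after the siRNA and rose after Ceapin-A7. Rises carried it in 4.01% of cases in the siRNA arm and 12.0% in the compound arm. Every shared fall is also a fall of the siRNA arm, and every shared rise a rise of it. Because the sequence was chosen from siRNA falls, the gap between these shares is not read as a result about shared genes. Among the shared falls described above, DNAJB9 carried the sequence and fell more after the siRNA. SEL1L and MCM4 also fell more after the siRNA and did not carry it. HSPA5, HERPUD1, SDF2L1, CRELD2 and BMF did not carry it either. The shares were not adjusted for the length of the region. Its median was 2055 bases in shared falls, 1565 in shared rises and 1355 in all genes tested. It was 2207 in all siRNA falls and 2599 in genes that fell after the siRNA and rose after Ceapin-A7. The part of GAGTCAT in the shared falls was not tested.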

How the data were processed

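RNA of DU145 cells was sequenced in 12 libraries made with a stranded TruSeq kit, per the labels. The authors deposited estimated counts of reads per gene; the submitters' processing notes name Salmon and hg38. For Salmon's version, the annotation release and the strand setting nothing was found (not given in the sources used here). Values are whole numbers, and each of the 21439 genes listed has at least 1 count in every library, so genes at 0 in any library could not be followed. Columns with the prefix NC were matched to siCtrl by elimination and number.

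The counts of all 12 libraries entered 1 model in edgeR 4.0.16 (R 4.3.3) after filterByExpr by group, which removed 3616 genes and left 17823. Each of the 4 groups had its own term, scaling was by TMM, and 8 residual degrees of freedom remained for the quasi-likelihood F test. Calls required a two-sided p under 0.05 after Benjamini-Hochberg adjustment over all genes tested. CPM values are TMM-scaled. Positions and 3′ untranslated regions (at least 50 bases) came from GENCODE v29, promoters from RefSeq. The pipeline was tested on simulated data. Correlations of deviations between same-numbered libraries of different groups ran from −0.0142 to 0.0296 over 18 pairs, so no common effect of the replicate number was seen. Whether same-numbered libraries were handled together cannot be told from these values. Counts of replicates differed beyond sampling noise in all 12 pairs within groups (chi-square per degree of freedom 1.41 to 1.87).

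The members, the 25 gene lists and the marker lists were chosen with earlier results of these data known. Named genes were ATF6; the 8 shared rises and 8 shared falls with the largest effect in the weaker arm, at least 1 CPM and no overlap of libraries; up to 3 shared members per ER, stress-branch or lipid list and 2 per other list by smallest p on the average; 2 genes per direction called on the average alone; and 2 per opposite pattern. This gave 53 genes, of which 1 is not reported here. SEPTIN5, FADS2, NDRG1, TMED2, TMED10 and RPL15, whose calls were lost without several libraries, are not described. Members outside the rule complete counts or were looked up after their values were seen (MANF, HYOU1, CANX, CALR, XBP1, DDIT3, FOS, JUND, PCK2, GPT2, ATP2A2 and members given as examples of single-arm or opposite calls). CEBPB, CYP1B1, DKK1, DNAJB11, DNAJB9, PDIA3, PDIA6, STARD4, DDIT3 and MARS1 overlap a gene on the other strand, whose reads may not be told apart. The alternatives were DESeq2 1.42.0 or limma 3.58.1 (voom) in place of edgeR, DESeq2 size factors or library totals, no filter or 1 CPM in 3 libraries, an additive model, the replicate number as a block, 6 libraries per comparison, thinning to 17760878 counts, adjusted p under 0.01, a minimum of 1.2-fold, and each library left out.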

Additional observations from a re-analysis of the deposited data

Results flagged for a closer look

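The siRNA effect and the Ceapin-A7 effect differed for 19 of 52 named genes. This was by a test of the difference itself (siRNA effect minus Ceapin-A7 effect, log2, edgeR quasi-likelihood, adjusted over all genes tested). Of all genes tested 23.4% were called by the same test. The 19 include ATF6 and the genes chosen for opposite signs, so they are not a neutral sample. For the other named genes described here the difference was not called, which does not show that the arms acted alike. No explanation was tested for any of these differences.

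Among genes of the endoplasmic reticulum, the difference was −2.30 for ATF6 (adjusted p = 1.74e-25), the target of the siRNA, and −0.67 for SEL1L (9.73e-17), with the lower value after the siRNA. It was 0.72 for SDF2L1 (0.00037), 0.34 for HSPA5 (3.6e-12), 0.32 for DNAJB11 (5.13e-07) and 0.13 for HSP90B1 (0.00214), which had the more negative value after Ceapin-A7. For DNAJB9 it was −0.25 (0.000192).

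Among sterol genes the difference was 0.16 for STARD4 (0.00332) and 0.23 for IDI1 (1.32e-06). Among amino acid and stress genes it was −0.26 for SLC3A2 (4.89e-08), 0.15 for SARS1 (0.00173), −0.20 for SESN2 (0.00232) and 0.25 for TRIB3 (6.79e-06).

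CYP1B1 and NPTX1, higher after the siRNA and lower after Ceapin-A7, differed by 1.44 (1.01e-21) and 1.04 (7.29e-13). CSF2 and IL1RN had the opposite pattern, with −1.54 (9.11e-07) and −1.99 (0.000274). CYP1B1, NPTX1, CSF2 and IL1RN were chosen because the arms called them with opposite signs. The difference was called for all 115 and 115 genes of the opposite patterns, so these calls follow from the choice. The last 2 named genes with a called difference were EGR1 with −0.75 (8.07e-05) and MCM4 with −0.14 (0.000474).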

How the results depend on the processing

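The counts on the average contrast were 2094 rises and 2106 falls, those of the shared response 114 and 144, those of the opposite patterns 115 and 115, and the difference between arms was called for 4167 genes. At an adjusted p under 0.01 the shared counts were 72 rises and 71 falls, and the opposite counts 54 (up after siRNA, down after Ceapin-A7) and 72. With a minimum of 1.2-fold the average gave 228 rises and 540 falls, the shared response 10 and 17, the opposite patterns 6 and 26, and the difference 2398. An additive model, in which a difference between the arms enters the residual spread, gave 691 rises and 937 falls on the average. With the siRNA calls limited to as many genes as the compound arm called, an alternative chosen after seeing the data, the shared counts were 22 and 34 and the opposite counts 28 and 33. Apart from the left-out libraries below, the other alternatives kept these counts within 1.5 times of those reported. DESeq2 gave 1637 and 1597 on the average and 91 and 111 shared. Of the 258 shared genes 194 remained shared by DESeq2 and 251 by limma-voom.

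Leaving out 1 library at a time gave 1804 to 2215 rises and 1824 to 1994 falls on the average, 86 to 125 shared rises, 90 to 143 shared falls, 75 to 111 and 87 to 116 opposite genes, and 3763 to 4055 differences. The shared falls were 90 without Ceapin replicate 3, and the first opposite pattern 76 without Ceapin replicate 2 and 75 without Ceapin replicate 3. With the replicate block the average gave 2053 rises and 2070 falls, the shared response 116 and 134, the opposite patterns 108 and 108 and the difference 4126. No common effect of the replicate number was seen.

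The average of NPTX1 changed sign under the additive model (0.0324) and ran from −0.0394 to 0.0153 over the left-out libraries, being above 0 without siCtrl replicate 3, Ceapin replicate 1 or DMSO replicate 3; that of CSF2 ran from −0.141 to 0.0378, above 0 without DMSO replicate 3. Neither was called. The averages of CYP1B1 and BCL9L were no longer called under the additive model (edgeR adjusted p = 0.702 and 0.0692). The 53 named genes were followed singly in at most 21 alternatives per effect. The adjusted p under 0.01, the minimum of 1.2-fold and the limited siRNA calls were not among these. Call and direction were unchanged for 1105 of 1112 average values, 1078 of 1112 siRNA values and 1060 of 1111 compound values. Most of these genes were chosen by effect size or smallest p in the same data, which favours unchanged calls. No scaling moved the median of all genes by 0.1 on the log2 scale. Depth limits genes at a few CPM, such as IL1RN and CSF2, whose single-arm calls were lost without the libraries named above.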
